A study of Mus musculus with 2 samples.

Results

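The transcripts of 7 genes that handle glucose in islet cells or answer to it were followed in single-cell RNA-Seq of pancreatic islets from WT and GKO (ghrelin-knockout) mice. These genes were Slc2a2, Slc2a1, G6pc2, Pcx, Mlxipl, Txnip and Arrdc4, and each was found by its symbol among the 27998 genes of the count matrices. All mice were male, on a C57BL/6N background and fed standard chow, and GKO mice carried a germline deletion of the ghrelin gene that their WT littermates did not. Islets of 4 mice of 8 weeks of age were pooled per genotype, dispersed, sorted for live cells and made into 1 library, and more GKO than WT cells went into the sort. There was thus no replicate of either genotype, cells of 1 pool are not replicates of a condition, and no test of a genotype difference could be made. The exact 95% intervals given below reflect counting error alone and say nothing about variation among mice or preparations.

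Glucose enters a rodent β cell through GLUT2, the low-affinity transporter that Slc2a2 encodes, and is then phosphorylated to glucose 6-phosphate. G6pc2 encodes the islet glucose-6-phosphatase catalytic subunit, which turns glucose 6-phosphate back into glucose, and Pcx encodes pyruvate carboxylase, which feeds pyruvate into the citric acid cycle as oxaloacetate. Mlxipl encodes ChREBP, a transcription factor that glucose metabolites activate and that binds carbohydrate response elements, paired E-box-like sequences. Txnip and Arrdc4 are established ChREBP targets that encode α-arrestins, proteins that lower glucose uptake, and TXNIP also binds thioredoxin. Slc2a1 encodes GLUT1, the transporter of most other tissues.

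The promoters of Txnip and Arrdc4 are shown because both genes have been described as glucose-responsive through such elements. A further reason was a weak correlation of their transcripts over single insulin-led cells (r = 0.187 in WT and 0.199 in GKO). Its limits are described further on, and its cause was not tested. The sequences are the 250 bases before the RefSeq start (GRCm38.p6), 5′ to 3′ on the strand of the gene, at chr3:96557707-96557956 on the plus strand for Txnip and at chr7:68749239-68749488 on the minus strand for Arrdc4. Capitals mark every CACGNG box and every CCAAT box, on either strand.
Txnip: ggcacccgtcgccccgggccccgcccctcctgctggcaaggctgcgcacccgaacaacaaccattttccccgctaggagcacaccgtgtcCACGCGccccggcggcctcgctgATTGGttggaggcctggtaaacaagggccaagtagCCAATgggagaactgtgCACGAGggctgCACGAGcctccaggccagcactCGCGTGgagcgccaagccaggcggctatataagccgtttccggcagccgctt
Arrdc4: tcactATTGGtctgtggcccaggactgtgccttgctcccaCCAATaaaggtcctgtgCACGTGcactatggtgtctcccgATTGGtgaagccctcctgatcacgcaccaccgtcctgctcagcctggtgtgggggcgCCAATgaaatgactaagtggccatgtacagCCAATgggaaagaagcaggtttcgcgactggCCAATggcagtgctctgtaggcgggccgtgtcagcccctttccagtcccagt

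The Txnip window held 4 CACGNG boxes, 2 of them 5 bases apart, with 68 bases between that pair and the start. Such a pair with a spacer of 5 bases was present in 15 of 32851 promoter windows of this length (0.0457%), and in 1 member, Txnip. The Arrdc4 window held 1 full E-box, CACGTG, with 187 bases between it and the start, and 6 CCAAT boxes, whereas the Txnip window held 2 CCAAT boxes. A full E-box was found in 6.02% of all windows, a CACGNG box, which includes it, in 23.5%, and a CCAAT box in 33.8%. The upstream windows of Mlxipl and Pcx each held 1 full E-box as well, whereas no CACGNG box was found in the windows of Slc2a2, Slc2a1 and G6pc2. A match describes the letters of these windows and is not evidence of binding.

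Barcodes had to show 500 or more genes, with no more than 10% of their UMIs (unique molecular identifiers, 1 per captured transcript) from mitochondrial genes, which left 7100 of 7792 in WT and 6346 of 7289 in GKO. The libraries held 158067110 and 103511757 UMIs, and 18 barcode sequences occurred in both. Ghrl, which encodes ghrelin, was at 276 counts per 1000000 UMIs (CPM) in the WT library and at 2.71 CPM in the other. A barcode was put in a hormone-led class when insulin (Ins1 and Ins2), Gcg, Sst or Ppy made up at least 10% of its UMIs. The insulin-led class held 2265 WT and 872 GKO cells, the glucagon-led class 1048 and 1397, the somatostatin-led class 1414 and 1003, and the pancreatic polypeptide-led (PP-led) class 717 and 669. The other barcodes were classed by marker genes, and 5 such classes held at least 50 cells in each library. Of the 9 markers of β cells, 7 were highest in the insulin-led (β-like) class, and of the markers of the respective cell type, 4 of 7 were highest in the glucagon-led (α-like), 3 of 5 in the somatostatin-led (δ-like) and 2 of 4 in the PP-led (γ-like) class, in which 3 of the 4 were detected. All markers were highest in their own class for the endothelial-like, macrophage-like and both stellate-like classes. The same lists, with that of duct markers, had assigned these barcodes, so this outcome is no independent check of their identity. The lists for the hormone-led classes likewise include the hormone genes that define those classes. The remaining class is called duct marker-led, since all 6 duct markers were highest there but Ghrl was its leading gene by fold, with 7397 of its 7411 Ghrl UMIs in WT in 1 cell. Of the hormone-led barcodes, 183 in WT and 97 in GKO had a second hormone at 10% or more, and no doublet caller was run. In GKO, the median mitochondrial share was higher in each hormone-led class (2.84% in WT and 3.13% in GKO insulin-led cells), and acinar transcripts made up 0.0544% and 0.00975% of UMIs in insulin-led cells.

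Slc2a2 (ENSMUSG00000027690, chr3:28697903-28731359) marked the insulin-led cells, and its level there was close in the 2 libraries. The class held 23596 UMIs of it in WT, a level of 265 CPM, and 8787 UMIs or 268 CPM in GKO. The log2 ratio of GKO to WT was 0.02 (−0.02 to 0.05). Without hormone UMIs in the totals it was −0.06 (−0.10 to −0.03), an interval below 0. After thinning to 5000 UMIs per cell, 64.9% of WT and 64.5% of GKO insulin-led cells had a Slc2a2 UMI. In the thinned glucagon-led cells, which should lack GLUT2, that share was 2.03% and 1.16%. Median depths were 37124 and 35811 UMIs in insulin-led and 12502.5 and 12174 UMIs in glucagon-led cells, and without thinning the shares were 93.6% and 93.2% in insulin-led and 4.39% and 2.72% in glucagon-led cells. Within WT, the level was 72.5 times as high in insulin-led as in glucagon-led cells (55.4 to 96.8).

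In the other hormone-led classes Slc2a2 lay near the level that their insulin transcripts imply for free RNA, which gives every droplet a low count of abundant transcripts. Insulin transcripts made up 0.678% of UMIs in WT and 0.494% in GKO glucagon-led cells, and if they had come with the other RNA of insulin-led cells in the ratio found there, Slc2a2 would have been at 3.02 and 2.31 CPM. It was measured at 3.66 (2.74 to 4.78) and 2.51 (1.84 to 3.34) CPM, so both measured intervals hold the implied level. In somatostatin-led cells it was at 4.91 (3.90 to 6.09) and 3.46 CPM, against 2.96 and 2.83 CPM implied, so the WT value lay above the implied one, and in PP-led cells it was at 3.82 and 1.67 CPM, against 2.98 and 2.16 CPM implied, with both intervals holding them. The log2 ratios of Slc2a2 in the 3 classes were −0.54 (−1.14 to 0.05), −0.50 (−1.10 to 0.07) and −1.19 (−1.91 to −0.52). The glucagon-led and somatostatin-led intervals thus held 0, and the glucagon-led ratio was −0.02 with at least 25% Gcg UMIs. The share of insulin UMIs was lower in GKO in all 3 classes. The implied levels were lower in GKO too, but by less than the measured ones in each class, and the PP-led ratio was −0.45 without barcodes that had a second hormone at 5% or more. The part of free RNA in these ratios was not tested further.

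The duct marker-led cells differed. They held 262 Slc2a2 UMIs in 83 WT cells and 270 in 102 GKO cells, or 149.7 and 159.5 CPM, against an implied 2.19 and 1.63 CPM. A Slc2a2 UMI was present in 42.0% and 42.4% of their thinned cells. These cells ranked directly below the insulin-led class, which was 1.77 times (1.57 to 2.01) as high in WT and 1.68 times as high in GKO, or 4.45 and 4.03 times without hormone UMIs in the totals. In the 82 WT cells with under 2% insulin UMIs the level was 149.4 CPM. All 262 WT UMIs lay outside the 1 cell with most Ghrl, a count added after the leading gene of the class was seen.

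**Figure D1:**
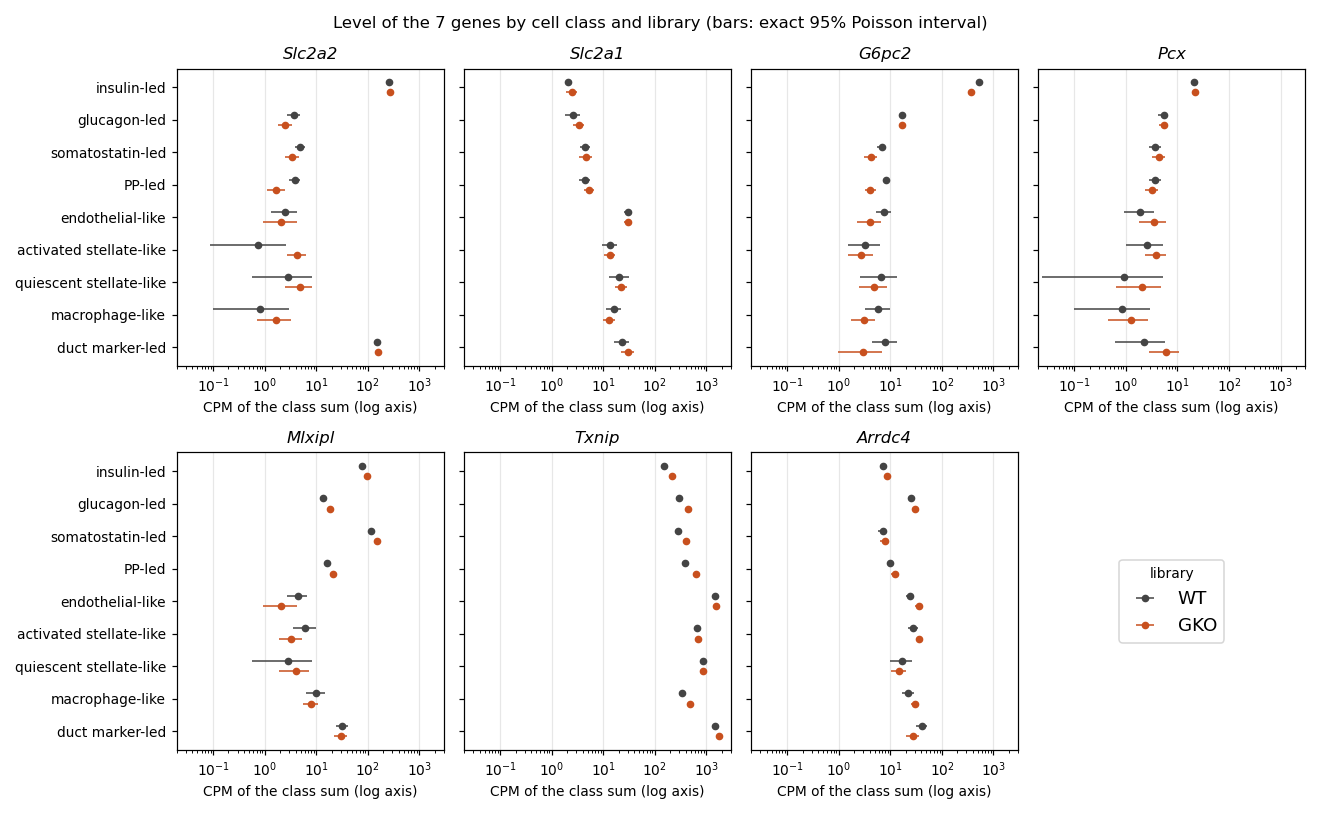
Level of the 7 genes (CPM of the class sum, log axis) in 4 hormone-led and 5 marker-defined classes, WT in grey and GKO in orange, with exact 95% Poisson intervals. Slc2a2 and G6pc2 are highest in insulin-led cells, Slc2a2 is also high in duct marker-led cells, and Txnip is at its lowest in insulin-led cells, an order that changes when hormone UMIs are left out of the totals.

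Slc2a1 (ENSMUSG00000028645, chr4:119108711-119137983) was a gene of the marker-defined classes. It was highest in endothelial-like cells, at 30.2 CPM in WT and 30.3 CPM in GKO, followed by duct marker-led (22.9 and 30.1 CPM) and quiescent stellate-like cells (20.6 and 22.2 CPM), and these neighbors overlapped within their intervals. Macrophage-like and activated stellate-like cells lay between 13.0 and 16.2 CPM. The 4 hormone-led classes lay between 2.11 and 5.27 CPM, and the step from the marker-defined to the hormone-led classes was the only one between neighbors whose intervals did not overlap in either library. Insulin-led cells were lowest, although not when hormone UMIs were left out of the totals, with 188 UMIs (2.11 CPM) in WT and 80 UMIs (2.44 CPM) in GKO. The log2 ratio of 0.21 had a counting interval from −0.19 to 0.59, so the counts did not separate the 2 libraries. Without hormone UMIs in the total, the endothelial-like level was 5.55 times the insulin-led level in WT, and with them 14.3 times.

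G6pc2 (ENSMUSG00000005232, chr2:69211073-69227841) was lower in GKO than in WT insulin-led cells. The class held 45730 WT and 12023 GKO UMIs, or 514 and 366 CPM, a log2 ratio of −0.49 (−0.52 to −0.46). Among the 11907 genes with at least 100 UMIs over both libraries in this class it ranked 329th from the lowest ratio, and the median of all was 0.09. The share of thinned insulin-led cells with a G6pc2 UMI was 83.4% in WT and 73.5% in GKO. The difference was present in cells with 25 to 60% insulin UMIs (416 and 317 CPM, −0.39) and in cells with more than 60% (584 and 415 CPM, −0.49), whereas the 53 WT and 37 GKO cells below 25% had 134.7 and 138.6 CPM (0.04, −0.28 to 0.36). In thinned glucagon-led cells, 6.94% of WT and 7.31% of GKO cells had a G6pc2 UMI.

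Outside insulin-led cells, G6pc2 had a level of its own in glucagon-led cells. It was measured there at 17.0 CPM (15.0 to 19.3) in WT and 16.5 CPM (14.7 to 18.4) in GKO, and insulin transcripts implied 5.85 and 3.15 CPM. The log2 ratio in this class was −0.05 (−0.29 to 0.20), an interval that lay above that of insulin-led cells, and it became 0.28 when the RNA implied by the transcripts of the other 3 hormone classes was subtracted. In somatostatin-led cells G6pc2 was at 6.76 and 4.19 CPM with 5.74 and 3.87 CPM implied, and in PP-led cells at 8.40 and 4.11 CPM with 5.77 and 2.96 CPM implied. The implied levels lay inside the measured intervals in somatostatin-led cells. In PP-led cells they lay below the measured intervals, which were 7.09 to 9.88 CPM in WT and 3.17 to 5.25 CPM in GKO. In PP-led cells with under 2% insulin UMIs, G6pc2 was at 5.55 (4.49 to 6.80) and 3.32 CPM (2.47 to 4.37), with 4.06 and 2.26 CPM implied. In both classes the implied levels were lower in GKO too. The ratios in these classes were −0.69 and −1.03, and the PP-led one was −0.67 without barcodes that had a second hormone at 5% or more.

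**Figure D2:**
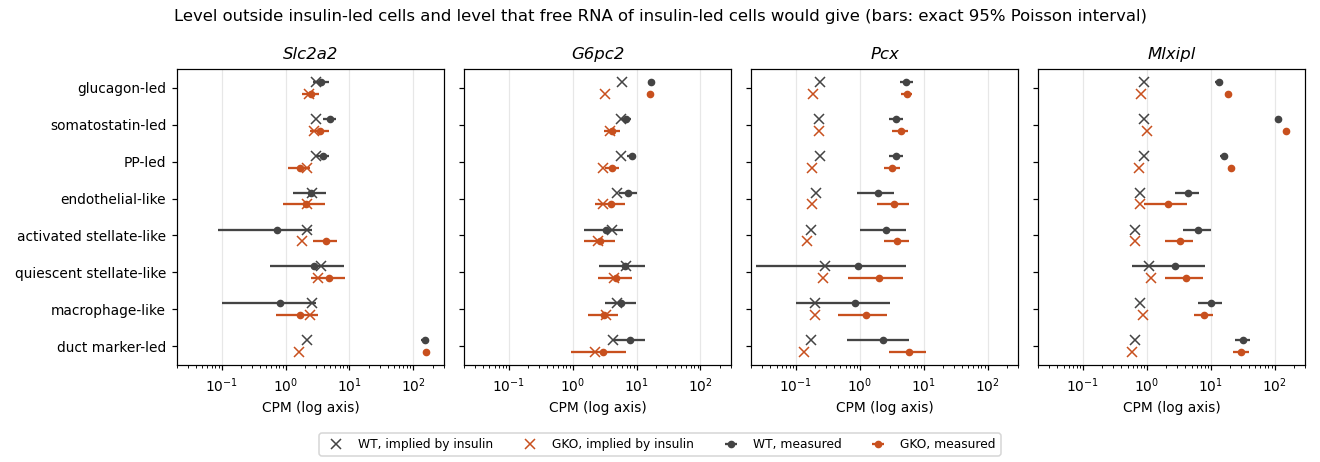
Measured level of Slc2a2, G6pc2, Pcx and Mlxipl outside insulin-led cells (points with exact 95% Poisson intervals) and the level implied by the insulin UMIs of the same class (crosses), in CPM on a log axis, WT in grey and GKO in orange. Slc2a2 is far above its crosses in duct marker-led cells, at 149.7 and 159.5 CPM, and near them in the hormone-led classes, G6pc2 lies above them in glucagon-led cells in both libraries, and Pcx and Mlxipl lie above them in every hormone-led class. The crosses leave out free RNA of somatostatin-led cells, where Mlxipl is highest per UMI. Sst makes up 0.949% (WT) and 0.892% (GKO) of UMIs in glucagon-led cells.

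Pcx (ENSMUSG00000024892, chr19:4510472-4621752) was also highest in insulin-led cells, at 21.0 CPM (1867 UMIs) in WT and at 21.9 CPM (717 UMIs) in GKO. The log2 ratio was 0.06 (−0.07 to 0.18), and 11.1% of WT and 12.9% of GKO thinned cells had a Pcx UMI. Glucagon-led cells had 5.38 and 5.45 CPM, with 0.239 and 0.188 CPM implied by insulin. Somatostatin-led (3.71 and 4.37 CPM) and PP-led cells (3.71 and 3.21 CPM) were not separated from each other within their intervals in either library. In no hormone-led class as a whole did the interval of the Pcx ratio leave out 0. Within the insulin-led class, the ratio was 0.20 (0.01 to 0.39) with 25 to 60% insulin UMIs, or 0.16 (−0.03 to 0.35) without hormone UMIs. It was −0.04 (−0.22 to 0.13) above 60% insulin UMIs, and 0.34 in cells with 5000 to 30000 UMIs.

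Mlxipl (ENSMUSG00000005373, chr5:135089890-135138382), the ChREBP gene, was highest in the δ-like and β-like classes. Somatostatin-led cells had 115 (WT) and 148 CPM (GKO), and insulin-led cells 79.3 and 95.1 CPM, so that the δ-like class was 1.45 and 1.56 times as high per UMI, but 0.766 and 0.862 times as high when hormone UMIs were left out of the totals. Insulin transcripts alone took 59.5% of UMIs in WT and 57.4% in GKO insulin-led cells. Glucagon-led cells had 13.6 and 18.6 CPM, PP-led cells 15.9 and 21.0 CPM, and duct marker-led cells 32.0 and 30.1 CPM. Endothelial-like, stellate-like and macrophage-like cells had at most 9.97 CPM, in macrophage-like WT cells.

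In all 4 hormone-led classes Mlxipl was higher in GKO. The log2 ratio was 0.26 (0.20 to 0.32) in insulin-led, 0.46 (0.20 to 0.71) in glucagon-led, 0.37 (0.27 to 0.47) in somatostatin-led and 0.40 (0.16 to 0.63) in PP-led cells. Every one of these intervals lay above 0, but the PP-led ratio was 0.11 in cells with no more than 5% mitochondrial UMIs as well as in those with at least 25% Ppy UMIs, both below its interval. The ratio stayed above 0 in every alternative tried in these classes, and the median over all genes lay between 0.03 and 0.09 in these classes. From the highest ratio, Mlxipl ranked 1920th of 11907 genes in insulin-led, 389th of 10670 in glucagon-led, 555th of 10735 in somatostatin-led and 557th of 10189 in PP-led cells. Between 57.4% (somatostatin-led) and 69.1% (insulin-led) of all genes had a ratio above 0. In thinned somatostatin-led cells, 40.4% of WT and 49.3% of GKO cells had a Mlxipl UMI. The share was 34.2% and 39.0% in insulin-led cells, but 6.17% and 5.93% in glucagon-led and 7.68% and 8.10% in PP-led cells, and 0.891% and 0.610% in endothelial-like cells. Without thinning the shares in glucagon-led cells were 13.0% and 14.3%, and those in PP-led cells 22.3% and 21.8%. In raw counts, the tenth of cells with the most Mlxipl held 84.3% (WT) and 82.8% (GKO) of its UMIs in glucagon-led cells. In PP-led cells it held 68.0% and 75.5%, and the intervals do not cover such clustering. With free RNA of the other hormone classes subtracted, the ratio was 0.69 in glucagon-led and 0.35 in PP-led cells. The part of free RNA of somatostatin-led cells in these 2 classes was not tested further.

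Txnip (ENSMUSG00000038393, chr3:96557957-96561883) was the gene of the group with the highest ratio of GKO to WT in each of the 4 hormone-led classes. Larger differences in the other direction were those of G6pc2 in somatostatin-led (−0.69) and PP-led cells (−1.03) and of Slc2a2 in PP-led cells (−1.19, from 66 and 26 UMIs). Txnip did not stay highest under every alternative. In insulin-led cells with 5000 to 30000 UMIs, Slc2a1 (0.36) and Pcx (0.34) were above its 0.33. In glucagon-led cells with at least 25% Gcg UMIs, Slc2a1 (0.89) was above its 0.74. There Pcx (0.89) was above its 0.51 after thinning, and Mlxipl (0.69) above its 0.56 with free RNA subtracted. In thinned PP-led cells, Arrdc4 (0.76) was above its 0.71. Insulin-led cells had 13438 Txnip UMIs in WT and 7163 in GKO, or 151 and 218 CPM, a log2 ratio of 0.53 (0.49 to 0.57). Glucagon-led cells had 301 and 444 CPM (0.56, 0.50 to 0.61), somatostatin-led cells 280.4 and 411 CPM (0.55, 0.49 to 0.61), and PP-led cells 389 and 626 CPM (0.69, 0.64 to 0.73). Counted from the highest ratio, Txnip ranked 385th of 11907 genes in insulin-led, 203rd of 10670 in glucagon-led, 192nd of 10735 in somatostatin-led and 117th of 10189 in PP-led cells.

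In the marker-defined classes the difference ranged more widely. Txnip was at 1504 and 1565 CPM in endothelial-like cells (0.06, 0.01 to 0.11), at 672 and 679.8 CPM in activated stellate-like cells (0.02, −0.06 to 0.10) and at 860.1 and 875 CPM in quiescent stellate-like cells (0.02, −0.09 to 0.14). In macrophage-like cells it was at 338 and 491 CPM (0.54, 0.42 to 0.65), and in duct marker-led cells at 1477 and 1797 CPM (0.28, 0.21 to 0.36). The 3 classes with a ratio near 0 had intervals that ended below those of all 4 hormone-led classes. Levels ran from insulin-led cells, the lowest class in both libraries, over somatostatin-led, glucagon-led, macrophage-like, PP-led and both stellate-like classes to endothelial-like and duct marker-led cells. Of the neighbors in that order, only endothelial-like and duct marker-led cells of WT overlapped within their intervals. Without hormone UMIs, insulin-led cells were no longer lowest in WT (394 CPM, with 388 CPM in somatostatin-led and 345 CPM in macrophage-like cells), and in GKO they had 541 CPM, with 498 CPM in macrophage-like cells.

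Mitochondrial share moved with the genotype in the hormone-led classes, and in cells with no more than 5% mitochondrial UMIs the log2 ratio of Txnip was 0.48 in insulin-led, 0.60 in glucagon-led, 0.52 in somatostatin-led and 0.68 in PP-led cells. Leaving hormone UMIs out of the totals gave 0.46, 0.56, 0.54 and 0.66. In cells with 5000 to 30000 UMIs the insulin-led value was 0.33, while the other 3 classes were at 0.57, 0.55 and 0.66, and the part of depth in the result was not tested further. In somatostatin-led cells with at least 25% somatostatin UMIs the ratio was 1.00. By insulin share, Txnip was at 489 and 664 CPM in insulin-led cells with less than 25% insulin UMIs, at 261 and 341 CPM between 25 and 60% and at 73.5 and 105 CPM above 60%, and the ratios were 0.44, 0.39 and 0.52. Cells with less insulin thus had more Txnip in both libraries, and the genotype difference was present at each insulin share. Without hormone UMIs the order was the same, with 702, 564 and 226 CPM in WT and 975, 719 and 312 CPM in GKO.

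**Figure D3:**
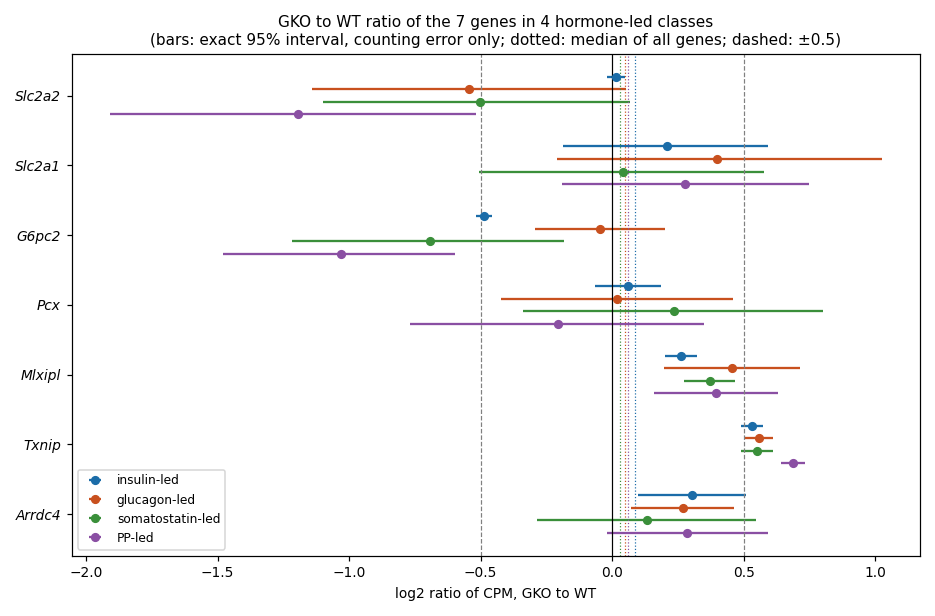
Log2 ratio of GKO to WT for each of the 7 genes in the 4 hormone-led classes, with exact 95% intervals that cover counting error only, the median of all genes in each class (dotted) and the limit of 0.5 (dashed). Txnip lies at 0.53 to 0.69 and Mlxipl at 0.26 to 0.46, all above 0, whereas G6pc2 is below 0 in insulin-led cells and near 0 in glucagon-led cells.

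Arrdc4 (ENSMUSG00000042659, chr7:68736995-68749241), an α-arrestin gene like Txnip, was lowest in somatostatin-led (7.06 CPM in WT and 7.74 CPM in GKO) and insulin-led cells (7.13 and 8.81 CPM), which overlapped within their intervals, but at 9.76 and 10.6 CPM in the first and 18.6 and 21.8 CPM in the second without hormone UMIs. Glucagon-led cells had 24.7 and 29.7 CPM, 3.46 and 3.38 times the insulin-led level, or 1.90 and 1.95 times without hormone UMIs. The marker-defined classes lay between 14.6 and 41.1 CPM. The log2 ratio of GKO to WT was 0.30 (0.10 to 0.51) in insulin-led and 0.27 (0.07 to 0.46) in glucagon-led cells, ranks of 1374 among 11907 and of 1321 among 10670 genes from the highest. The ratio was 0.13 (−0.29 to 0.55) in somatostatin-led and 0.29 (−0.02 to 0.59) in PP-led cells, where the interval reached 0. In insulin-led cells with more than 60% insulin UMIs Arrdc4 was at 4.28 and 4.25 CPM (−0.01, −0.40 to 0.36), and with 25 to 60% at 11.3 and 13.9 CPM (0.30, 0.04 to 0.56).

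Counted over the 7 genes, 1 in the insulin-led class, Txnip, was at least 0.5 higher in GKO on the log2 scale, where 3.8% of all 11907 genes were, and 0 were at least 0.5 lower, where 2.58% of all genes were. Txnip lay just outside and G6pc2 just inside that limit, so both counts changed with other ways of scaling. In the glucagon-led class the counts were 1 higher, Txnip, with 2.67% of all genes, and 1 lower, Slc2a2, with 2.48%. In the somatostatin-led class they were 1 higher, Txnip, with 2.35%, and 2 lower, Slc2a2 and G6pc2, with 2.5%. The interval of Slc2a2 held 0 in both the glucagon-led (−1.14 to 0.05) and the somatostatin-led class (−1.10 to 0.07). In the PP-led class, where 6 of the 7 genes had 100 UMIs, 1 was higher, Txnip, with 2.8% of all genes, and 1 was lower, G6pc2, with 1.73%. The lower counts outside insulin-led cells were made up of Slc2a2 and G6pc2. Measured levels lay above the interval-compatible level implied by insulin for Slc2a2 in WT somatostatin-led cells and for G6pc2 in PP-led cells. In the other classes where these genes were counted as lower, the measured intervals held the implied level. The part of free RNA in these counts was not tested. The median log2 ratio of the counted members was 0.21, 0.27, 0.13 and 0.28 in the 4 classes, and that of all genes was 0.09, 0.05, 0.03 and 0.06.

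Txnip was spread unevenly over insulin-led cells. After thinning to 5000 UMIs, 61.6% of WT and 52.7% of GKO insulin-led cells had 0 Txnip UMIs, and 5.23% and 9.53% had 5 or more. In raw counts, the tenth of cells with the most Txnip held 51.0% of the class's Txnip UMIs in WT and 44.8% in GKO. That share was 37.4% and 34.7% in the glucagon-led, 36.6% and 36.1% in the somatostatin-led and 39.0% and 34.5% in the PP-led class. Cells with 0 UMIs made up 37.3% and 23.5% in the glucagon-led, 36.2% and 26.6% in the somatostatin-led and 30.4% and 22.6% in the PP-led class. Those with 5 or more made up 7.62% and 15.3%, 5.44% and 13.0%, and 12.3% and 26.4%. Hormone UMIs are part of the 5000. In WT they took 61.7% of UMIs in the insulin-led, 30.3% in the glucagon-led, 27.7% in the somatostatin-led and 48.7% in the PP-led class. Classes were thus not compared at equal non-hormone depth. Without hormone UMIs, Txnip in WT was at 394, 433, 388 and 758 CPM in these 4 classes. In endothelial-like cells, 0.445% of WT and 0.610% of GKO cells had 0 Txnip UMIs and 77.3% and 81.7% had 5 or more. In each of the 4 hormone-led classes, the share of cells with 0 UMIs was thus lower and that with 5 or more higher in GKO.

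**Figure D4:**
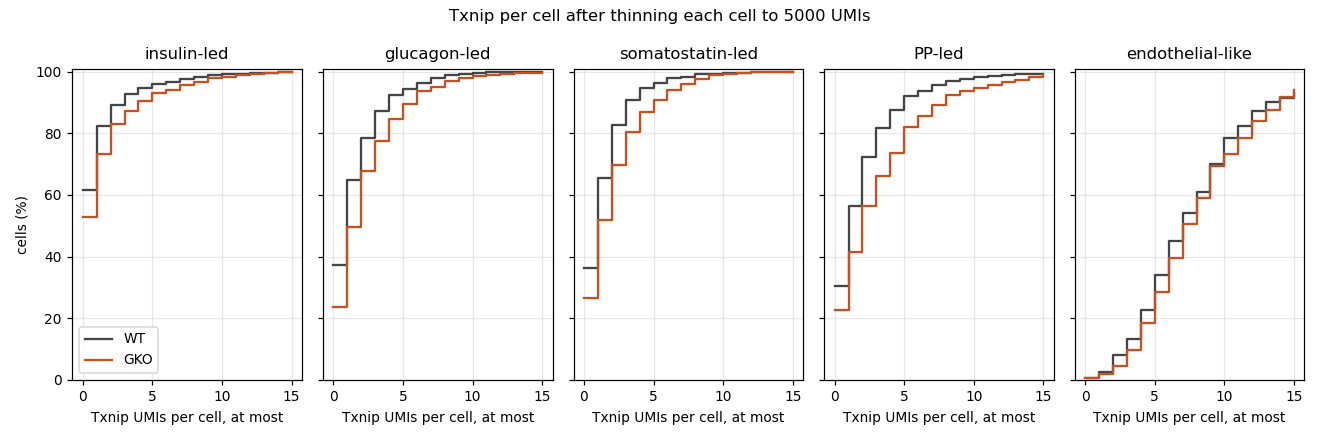
Share of cells (%) with at most a given number of Txnip UMIs after every cell was thinned to 5000 UMIs, for the 4 hormone-led classes and endothelial-like cells, WT in grey and GKO in orange. The share with 0 UMIs is lower in GKO in each hormone-led class (61.6% and 52.7% in insulin-led cells), and in endothelial-like cells it is below 1% in both libraries. Hormone UMIs are part of the 5000 and take the largest share in insulin-led cells, so classes are not at equal non-hormone depth.

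The other genes were then read in insulin-led cells grouped by their own Txnip UMIs, a description chosen after the Txnip values were seen and made on a second thinning draw of the same cells. G6pc2 was at 1559 CPM of non-hormone UMIs (1511 to 1608) in the 1396 WT cells with 0 Txnip UMIs, at 1151 CPM in those with 1 to 2 and at 459.6 CPM (409 to 514) in the 261 cells with 3 or more. In GKO the values were 974, 832 and 329 CPM (273 to 394). Slc2a2 followed, with 775, 634 and 373 CPM in WT and 719, 646 and 374 CPM in GKO. Both genes were thus lowest in the insulin-led cells with most Txnip, in either library.

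The ChREBP gene and its other target had the opposite order. Mlxipl was at 195 CPM in WT cells with 0 Txnip UMIs, at 235 CPM with 1 to 2 and at 385 CPM (339 to 436) with 3 or more, and at 235, 279 and 399 CPM (336 to 469) in GKO. Arrdc4 was at 11.9, 22.5 and 80.4 CPM (60.2 to 105) in WT and at 7.75, 17.7 and 72.0 CPM (47.0 to 105) in GKO. Pcx was at 58.1, 53.1 and 36.4 CPM in WT and at 76.4, 42.4 and 63.7 CPM in GKO, with no common order in the libraries. These small counts moved with the draw, and in the first one Arrdc4 was at 14.9, 29.6 and 89.3 CPM and Pcx at 64.0, 68.0 and 57.8 CPM in GKO. In each of the Txnip groups, within which Txnip counts could still differ between the libraries, G6pc2 was lower in GKO, whereas the intervals of Arrdc4 overlapped between the libraries in each group. In the first draw, G6pc2 with 3 or more Txnip UMIs was at 431 CPM (381 to 485) in WT and 339 CPM (283 to 403) in GKO, with overlapping intervals.

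These groups differed in more than Txnip. The median insulin share was 63.9, 59.3 and 46.6% in WT and 63.1, 59.2 and 46.0% in GKO, and the median depth was 38746.5 UMIs in WT cells with 0 Txnip UMIs and 25802 with 3 or more. Cells with a second hormone at 5% or more made up 6.09, 16.1 and 12.3% of the groups in WT and 5.81, 12.3 and 19.6% in GKO. Endothelial markers summed to 29.2, 121 and 183 CPM in WT and to 16.4, 32.1 and 149 CPM in GKO, against 20440 and 21432 CPM in endothelial-like cells, and the part of mixed barcodes in the pattern was not tested. Within cells of 25 to 60% insulin, G6pc2 was at 1137 CPM with 0 and 421 CPM with 3 or more Txnip UMIs in WT, and at 737 and 266 CPM in GKO. Among those cells, Arrdc4 was at 18.4 and 92.1 CPM in WT and at 10.6 and 60.7 CPM in GKO. Mlxipl was at 228 and 386 CPM in WT. In GKO it was at 306 (253 to 367) and 418 CPM (343 to 503), with overlapping intervals. Above 60% insulin, G6pc2 was at 1875 and 937 CPM in WT but at 1203 and 1083 CPM (774 to 1475) in GKO, where 20 cells had 3 or more Txnip UMIs. There Slc2a2 was at 904 and 754 CPM (583 to 960) in WT and at 863 and 1191 CPM (866 to 1599) in GKO, so its order by Txnip was not seen in these insulin-rich cells. Nor was that of Arrdc4 in WT, at 7.22, 29.4 and 11.4 CPM (0.289 to 63.7, from 1 UMI), while in GKO it was at 6.02, 8.88 and 81.2 CPM (16.8 to 237, from 3 UMIs). Mlxipl in insulin-rich WT cells was at 171 (151 to 193) CPM with 0 and 309 CPM (203 to 449) with 3 or more Txnip UMIs. In GKO it was at 177 (142 to 218) and 271 CPM (130 to 498), with overlapping intervals.

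**Figure D5:**
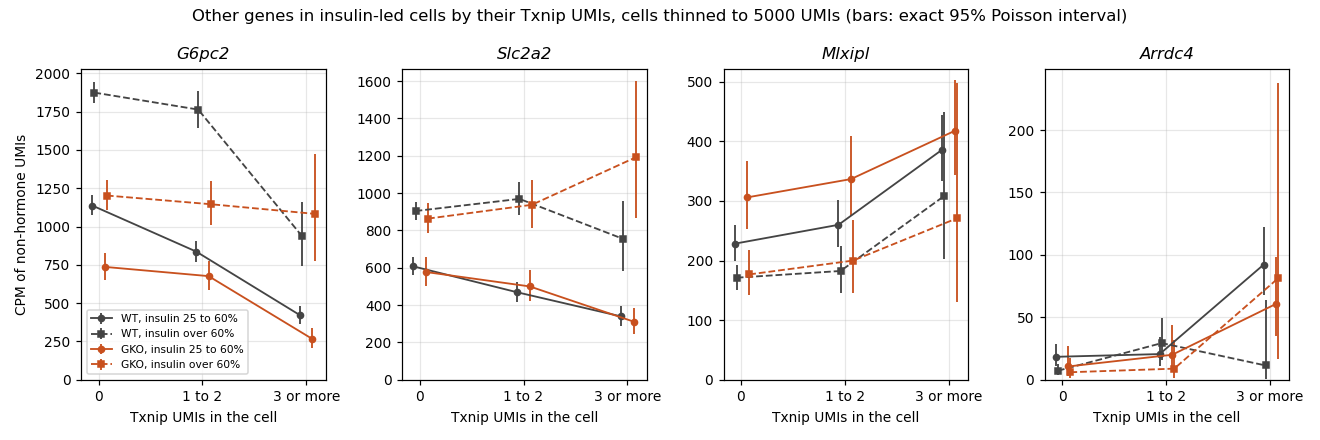
G6pc2, Slc2a2, Mlxipl and Arrdc4 (CPM of non-hormone UMIs, with exact 95% Poisson intervals) in insulin-led cells with 0, 1 to 2, or 3 or more Txnip UMIs, each cell thinned to 5000 UMIs, separately for cells with 25 to 60% insulin UMIs (solid) and over 60% (dashed), WT in grey and GKO in orange. G6pc2 is lower and Mlxipl higher in the cells with most Txnip between 25 and 60% insulin, in both libraries. For Mlxipl in GKO, the intervals with 0 and with 3 or more Txnip UMIs overlap there (253 to 367 and 343 to 503 CPM).

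Over single insulin-led cells, Pearson correlations with Txnip were weak and are given as an order only. Among 10766 genes in 2258 WT cells, Arrdc4 ranked 19th (r = 0.187) and Mlxipl 55th (r = 0.135), and G6pc2 ranked 10763rd (r = −0.273). Among 10786 genes in 871 GKO cells, Arrdc4 ranked 24th (r = 0.199), Mlxipl 53rd (r = 0.165) and G6pc2 10781st (r = −0.254). The 5 highest genes were Gpx3, Cd81, Aqp4, Rbp4 and Jun in WT (r = 0.290 to 0.240) and Gpx3, Rbp4, Cd81, Sult1d1 and Dbpht2 in GKO (r = 0.402 to 0.270). Gpx3 encodes a secreted glutathione peroxidase, Cd81 a tetraspanin and Rbp4 a retinol-binding protein that is also among the δ-cell markers used here, and these 3 were in both lists. All cells of a library share its free RNA, so these values describe each library alone. Depth and insulin share differed between insulin-led cells with 0 and with 3 or more Txnip UMIs, and their part in the correlations was not tested. In the other hormone-led classes the members tested had correlations with Txnip between −0.0585 and 0.129, without a common order.

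The pathway genes around these members were read in the same way in insulin-led cells, and few were past 0.5. Over all 11907 genes of this class, 69.1% had a ratio above 0. At least 0.5 higher were 3.8% of them and at least 0.5 lower 2.58%, and the counts below are to be read beside these shares. For glucose entry and phosphorylation, 6 of 12 genes had at least 100 UMIs, 3 of them above 0 and 3 below, 0 were at least 0.5 higher or lower, and the median log2 ratio was 8.1e-05. Beside G6pc2, the lowest was Slc37a4, the glucose 6-phosphate transporter of the endoplasmic reticulum, whose product hands the substrate to G6PC2 (26.3 and 19.7 CPM, −0.42, −0.55 to −0.29). The highest were Slc2a1 and G6pc3 (18.6 and 19.2 CPM, 0.05), and those with most UMIs were G6pc2 and Slc2a2.

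Among 16 measured of 17 genes of glycolysis below glucose 6-phosphate, 11 were above 0, where 69.1% of all genes were. In this list 0 were at least 0.5 higher or lower, and the median was 0.04. Those with most UMIs, Gapdh (248 and 259 CPM, 0.06) and Pkm (238 and 243 CPM, 0.03), had ratios below the median of 0.09 over all genes. Pgam1, which encodes phosphoglycerate mutase, was at 79.1 and 90.8 CPM (0.20), and Ldha, which encodes a lactate dehydrogenase subunit that β cells keep low, at 2.71 and 3.41 CPM (0.33), with an interval that reached 0. The lowest were Pgk1 (5.10 and 3.81 CPM, −0.42) and Aldoc (4.32 and 3.96 CPM, −0.13).

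All 25 genes of pyruvate use and anaplerosis were measured, 19 of them above 0, where 69.1% of all genes were. In this list 0 were past 0.5 in either direction, and the median was 0.14, against 0.09 over all genes. Mpc1, which encodes a subunit of the mitochondrial pyruvate carrier, was at 37.6 CPM in the WT class and at 49.0 CPM in that of GKO (0.38, 0.29 to 0.47), and Mdh1, which encodes cytosolic malate dehydrogenase, at 148 and 186 CPM (0.33, 0.28 to 0.37). Acly, which encodes ATP-citrate lyase, had the most UMIs (254 and 289 CPM, 0.19). Pck2 (27.4 and 22.5 CPM, −0.29) and Slc25a1 (29.1 and 27.0 CPM, −0.10) were lowest.

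The list of ChREBP factors and targets, which holds Txnip, Arrdc4 and Mlxipl themselves, had 20 of 22 genes measured. Of these, 15 were above 0, where 69.1% of all genes were, 1 was at least 0.5 higher, Txnip, and 1 at least 0.5 lower. The lower one was Thrsp, a lipogenic ChREBP target (2.74 and 1.86 CPM, −0.56, −0.99 to −0.15). Hnf4a, a transcription factor gene, was at 3.39 and 4.76 CPM (0.49, 0.20 to 0.77), and Mlxip, which encodes the ChREBP paralog MondoA, at 14.8 and 13.6 CPM (−0.12). The median over the list was 0.05 in insulin-led cells, below the 0.09 of all genes, but above that of all genes in glucagon-led (0.12 and 0.05), somatostatin-led (0.16 and 0.03) and PP-led cells (0.21 and 0.06). In these 3 classes 2 of 17, 3 of 18 and 4 of 16 measured genes were at least 0.5 higher, where 2.67%, 2.35% and 2.8% of all genes were, and 0 were lower, where 2.48%, 2.5% and 1.73% of all genes were. Txnip, 1 of the 7 genes followed here, was among them in each class. The list was chosen with earlier results of these data known, so these counts are no independent reading of ChREBP targets. The others, named after their values were seen, were Hnf4a in glucagon-led cells (0.91), Scd2 (0.52) and Bhlhe40 (0.71) in somatostatin-led cells, and Rgs16 (1.03), Scd2 (0.58) and Hnf4a (0.67) in PP-led cells.

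Of the thioredoxin system and α-arrestins, 9 of 11 genes were measured, with a median of 0.24, 1 at least 0.5 higher, Txnip, and 0 lower. Txn1, which encodes the thioredoxin that TXNIP binds, had 87.4 CPM in WT insulin-led cells and 106 CPM in those of GKO (0.28, 0.22 to 0.33). Arrdc4 was the next highest after Txnip, and Arrdc1 (7.36 and 6.19 CPM, −0.25, −0.48 to −0.02) and Arrdc2 (2.18 and 1.98 CPM, −0.14, −0.57 to 0.28) were the lowest. Of these 2 paralogs, the interval of Arrdc1 lay below 0 and that of Arrdc2 held 0.

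Across 18 sums (9 classes in 2 libraries), the genes with the pattern most like each member were found by Pearson correlation of log2(CPM + 1) among 10225 genes, where the points share the class makeup and the depth of 2 libraries. G6pc2 went with Gad1 (r = 0.980), Ucn3 (0.965) and Ins2 (0.960), all highest in insulin-led cells. Mlxipl went with Anks4b (0.968), Rasgrf1 (0.961) and Slitrk6 (0.958), all highest in somatostatin-led cells, and Pcx with Gpr158 (0.919), Hyou1 (0.881) and Car10 (0.876). Slc2a2 went with Muc4 (0.947), Tmprss4 (0.893) and 2210019I11Rik (0.849), of which the first and the second were highest in duct marker-led cells. The nearest genes of Txnip were Rassf1 (0.955), Casp6 (0.941) and 5430416N02Rik (0.940), those of Slc2a1 were Anxa3 (0.979), Rest (0.975) and Plcb3 (0.970), and those of Arrdc4 were Srgap2 (0.882), Arl5b (0.856) and Pabpc1 (0.849).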

How the data were processed

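Raw UMI counts per gene and barcode were used as the authors deposited them for 2 pooled 10x Genomics libraries, WT and GKO. According to the submitters' processing notes and the methods of the study, reads were aligned to mm10 and counted with Cell Ranger 5.0.1, with down-sampling between samples where required. Ambient RNA was not removed from these counts. Barcodes, hormone-led and marker-defined classes were selected as described, and UMIs were summed per class and library. Python 3.11.15 with numpy 2.4.6, scipy 1.17.1 and pandas 2.3.3 gave levels with exact Poisson intervals and log2 ratios with exact conditional intervals. Only the ratio intervals were tested on simulated data, which were Poisson counts for the insulin-led class. Such draws do not cover counts that cluster in a few cells. R 4.3.3 with edgeR 4.0.16 gave the trimmed-mean (TMM) scaling alternative. No p-value was computed, because each genotype was 1 library. Ratios were ranked among genes with 100 UMIs over both libraries, and a gene was counted as higher or lower past 0.5 on the log2 scale. Thinning drew 5000 UMIs per cell and left shallower cells out. From each pathway list the pair with the highest, the lowest and the most UMIs was named, among genes with 200 UMIs in insulin-led cells. A few genes of these lists are not reported here and were left out of the lists' counts and medians. Promoters were RefSeq windows, and gene positions came from GENCODE (GRCm38). The genes, lists and comparisons were chosen with earlier results of these data known.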

Additional observations from a re-analysis of the deposited data

Results flagged for a closer look

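Slc2a2 had ratios of opposite sign in 2 classes, each with an interval on 1 side of 0. In activated stellate-like cells the log2 ratio of GKO to WT was 2.54 (0.52 to 5.68), from 2 UMIs in WT and 22 in GKO, and the 22 lay in 10 cells, with 7 of them in 1 cell. In PP-led cells it was −1.19 (−1.91 to −0.52), from 66 and 26 UMIs, where the level lay near that implied by insulin transcripts. The difference between the classes was not tested, since each holds 1 library per genotype.

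Arrdc4 likewise had a log2 ratio of 0.57 (0.21 to 0.93) in endothelial-like cells, from 128 UMIs in WT and 136 in GKO, and of −0.60 (−1.16 to −0.04) in duct marker-led cells, from 72 and 46 UMIs in 41 and 33 cells. The most in 1 duct marker-led cell was 10 in WT and 3 in GKO. The difference was not tested.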

How the results depend on the processing

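Txnip was higher in GKO under every alternative tried in each hormone-led class, with log2 ratios of 0.33 to 0.55 in insulin-led, 0.51 to 0.74 in glucagon-led, 0.51 to 1.00 in somatostatin-led and 0.62 to 0.74 in PP-led cells. Its insulin-led value of 0.53 became 0.48 with at most 5% mitochondrial UMIs, with the leading hormone at 25% or more, and after thinning, 0.46 without hormone genes in the total, 0.44 with TMM factors, 0.39 in cells with 25 to 60% insulin UMIs and 0.33 in cells with 5000 to 30000 UMIs, and the cause was not tested. Slc2a2 in insulin-led cells, at 0.02, became 0.067 with all barcodes, −0.061 without hormone genes, −0.082 with TMM factors, −0.079 after thinning, 0.054 with 25 to 60% insulin UMIs and −0.056 with 5000 to 30000 UMIs. The insulin-led to glucagon-led log2 ratio of Slc2a2 in WT, 6.18, became 7.01 with the leading hormone at 25% or more, 7.04 without hormone genes, 7.09 with TMM factors and 10.22 with free RNA subtracted. The count of members at least 0.5 higher in insulin-led cells, 1, was 0 with at most 5% mitochondrial UMIs, leading hormone at 25% or more, hormone genes left out, TMM factors, equal weight per cell, thinning, 25 to 60% insulin UMIs, 5000 to 30000 UMIs or a limit of 1, and 2 at a limit of 0.3. The count at least 0.5 lower, 0, was 1 with hormone genes left out, TMM factors, equal weight per cell, thinning or a limit of 0.3. The Arrdc4 ratio of 0.30 in insulin-led cells was −0.010 above 60% insulin UMIs. G6pc2 in insulin-led cells ranged from −0.58 to −0.39 and Mlxipl from 0.16 to 0.38, and Mlxipl in PP-led cells from 0.11 to 0.46. Over 26 other ratios, 260 of 293 alternative values stayed inside the counting interval of the value reported, 32 left it, and 1 changed the sign of a ratio whose interval lay off 0. The subtraction of free RNA took the RNA of all 3 other hormone classes, each in proportion to its hormone's UMIs in the class, and so removed more than the level implied by insulin alone. It gave no value for Slc2a2 in glucagon-led and PP-led and for G6pc2 in somatostatin-led cells, where the sum to be removed exceeded the count in a library, and it took G6pc2 to 0.28 in glucagon-led and −3.14 in PP-led cells and Slc2a2 to −1.74 in somatostatin-led cells. No paired analysis was possible because each genotype was 1 pooled library with no test, and for the same reason no replicate could be left out. Genotype could not be told apart from the preparation, the sort or the library, and genes with few UMIs, such as Slc2a1 and Pcx, were limited by depth.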
